A study of Homo sapiens with 24 samples.

Results

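The 8 HOXA genes HOXA3, HOXA4, HOXA5, HOXA6, HOXA7, HOXA9, HOXA10 and HOXA11, together with MEIS1 and PBX3, were followed in 4 human cell lines exposed to BET bromodomain inhibitors. These 10 genes were chosen by symbol, and all 10 were found among the 30373 rows of the expression table. Sequencing of poly-A selected RNA gave 24 libraries in 12 groups of 2. The established lines SKM-1, MV-4-11 and Kasumi-1 come from acute myeloid leukaemia, and NCI-H1299 is an established non-small cell lung cancer line. In each line the groups were ABBV-075 at 100 nM, ABBV-744 at 200 nM, and DMSO, the solvent control, all for 24 h in culture medium with serum. ABBV-075 (mivebresib) binds both bromodomains of the BET proteins, whereas ABBV-744 prefers the second one; their doses differed, so each comparison between them holds for these doses. Each line is 1 culture model of its disease; MV-4-11 carries a fusion of MLL (KMT2A) with AFF1, and Kasumi-1 carries a fusion of RUNX1 with RUNX1T1.

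HOX genes encode homeodomain transcription factors that lie side by side in clusters and set position along the body axis in the embryo. In blood, HOXA9 and HOXA10 are active in stem and progenitor cells and are turned down as cells mature. MEIS1 and PBX3 belong to the TALE class of homeodomain proteins, which bind DNA together with HOX proteins, and MLL fusion proteins are known to keep HOXA9 and MEIS1 on in leukaemia.

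HOXA9, HOXA10 and HOXA11 lie next to each other on the minus strand of chromosome 7, and their RNA rose with ABBV-075 in MV-4-11 and fell with it in Kasumi-1 cells, so the 250 bases before their RefSeq starts are shown (GRCh38.p14, minus strand, 5′ to 3′). Capitals mark exact matches, on either strand, to CCAAT, to the E-box CACGTG, to TATAAA, to the MEIS core TGACAG and to the PBX-HOX motif TGATTNAT. HOXA10 has 2 RefSeq starts, and the one nearer to HOXA9 is given first.
HOXA9 (chr7:27165538-27165787): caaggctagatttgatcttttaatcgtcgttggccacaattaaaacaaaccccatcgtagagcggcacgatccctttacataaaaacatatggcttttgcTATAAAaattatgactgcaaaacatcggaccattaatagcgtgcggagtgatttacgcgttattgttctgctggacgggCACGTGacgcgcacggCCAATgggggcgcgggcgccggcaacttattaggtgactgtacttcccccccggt
HOXA10 (chr7:27174321-27174570): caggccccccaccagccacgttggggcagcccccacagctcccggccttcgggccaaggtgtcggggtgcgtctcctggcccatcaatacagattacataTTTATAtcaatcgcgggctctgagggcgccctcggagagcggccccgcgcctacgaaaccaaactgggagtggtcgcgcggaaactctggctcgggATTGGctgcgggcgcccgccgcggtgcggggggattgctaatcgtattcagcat
HOXA10 (chr7:27179862-27180111): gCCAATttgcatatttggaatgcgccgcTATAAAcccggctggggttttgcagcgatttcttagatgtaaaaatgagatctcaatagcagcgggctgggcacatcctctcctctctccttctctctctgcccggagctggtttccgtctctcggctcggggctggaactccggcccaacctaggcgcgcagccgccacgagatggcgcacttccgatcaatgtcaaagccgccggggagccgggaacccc
HOXA11 (chr7:27185233-27185482): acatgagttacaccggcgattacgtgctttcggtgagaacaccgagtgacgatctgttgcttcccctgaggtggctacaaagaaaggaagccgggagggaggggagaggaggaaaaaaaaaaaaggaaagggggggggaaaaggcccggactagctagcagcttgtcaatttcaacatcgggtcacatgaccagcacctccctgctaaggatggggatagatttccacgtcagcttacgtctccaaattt

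The HOXA9 window held all of CCAAT, the E-box and TATAAA, whose first bases lay 55, 71 and 150 bases before the start. At the nearer HOXA10 start CCAAT (as its reverse, ATTGG) began 54 bases and TATAAA (as TTTATA) 150 bases before the start, close to the HOXA9 spacing. The farther HOXA10 start had CCAAT at 249 and TATAAA at 222 bases, and the HOXA11 window held none of the 5 motifs. Among 35116 RefSeq promoter windows of the same length, 32.01% held CCAAT, 6.34% the E-box, 10.7% TATAAA, 13.0% the MEIS core and 2.48% the PBX-HOX motif; no 2 matches overlapped in the windows shown. Entries were found for 9 of the 10 genes, all but HOXA5. A match is a description of the letters only.

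Levels are given in FPKM, fragments scaled by transcript length and library size, which allows genes to be compared per unit of length. Total FPKM per library was between 543426 and 719215, and 11243 to 12624 rows reached 1 FPKM in a library; read depth cannot be read from FPKM and is unknown. Changes were tested with limma on log2(FPKM + 1), which understates changes of genes near or under 1 FPKM, two-sided, with p-values adjusted by the Benjamini-Hochberg method over all genes tested in the comparison. A gene was tested in a line when it reached 1 FPKM in at least 2 of its libraries, and it was called at an adjusted p under 0.05. Nothing in the labels tells if paired libraries came from separate cultures, so the p-values may measure technical spread only, and an exact two-sided permutation test of 2 against 2 libraries cannot give a p under 0.333. In bulk RNA, fewer cells with a transcript and less transcript per cell cannot be told apart.

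The leukocyte markers PTPRC, CD33 and SPI1 were well above 1 FPKM in all 3 leukaemia lines in DMSO and at most 0.0803 FPKM on average in NCI-H1299. The fourth, ITGAM, averaged 14.1 FPKM in SKM-1, 0.858 in MV-4-11, 0.0893 in Kasumi-1 and 1.26 FPKM in NCI-H1299, so it did not set the leukaemia lines apart. NCI-H1299 had KRT8 at 154.6 and KRT18 at 369.9 FPKM, while the epithelial adhesion genes EPCAM and CDH1 were at 0.0609 and 0.0151 FPKM in that line. EPCAM was also present in SKM-1 (33.6 FPKM) and Kasumi-1 (66.4 FPKM) in DMSO. The 2 SKM-1 DMSO libraries stood apart from each other: the SD of their log2 differences over genes was 0.637, against 0.186 to 0.451 in the other groups. Mitochondrial transcripts made up 22.3% of all FPKM in SKM-1 DMSO replicate 2 and 9.13% in replicate 1. The 4 epithelial markers, of which 3 reached 1 FPKM in replicate 2 and 1 in replicate 1, summed to 52.6 FPKM in replicate 2 and 19.6 FPKM in replicate 1. Values of SKM-1 are therefore given also without each of these libraries where that changes a call or a direction.

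The 4 lines used different parts of the HOXA cluster. MV-4-11 had almost only HOXA9 and HOXA10, SKM-1 had HOXA9, HOXA10 and HOXA7, Kasumi-1 had HOXA10 and HOXA5, and NCI-H1299 had HOXA7 and HOXA9 at low levels. In DMSO the 8 HOXA genes summed to 53.8 ± 10.5 FPKM in SKM-1, 80.6 ± 7.83 in MV-4-11, 32.7 ± 1.39 in Kasumi-1 and 22.7 ± 0.521 in NCI-H1299 (SD, n = 2 each). HOXA9 made up 60.05% of the sum in MV-4-11 and 44.9% in SKM-1, against 24.1% in NCI-H1299 and 3.52% in Kasumi-1. HOXA10 took 58.7% in Kasumi-1, 37.1% in MV-4-11 and 35.4% in SKM-1, but 6.46% in NCI-H1299. HOXA7 was the largest share in NCI-H1299 at 43.7%, and HOXA5 the next largest in Kasumi-1 after HOXA10 at 26.7%.

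**Figure D1:**
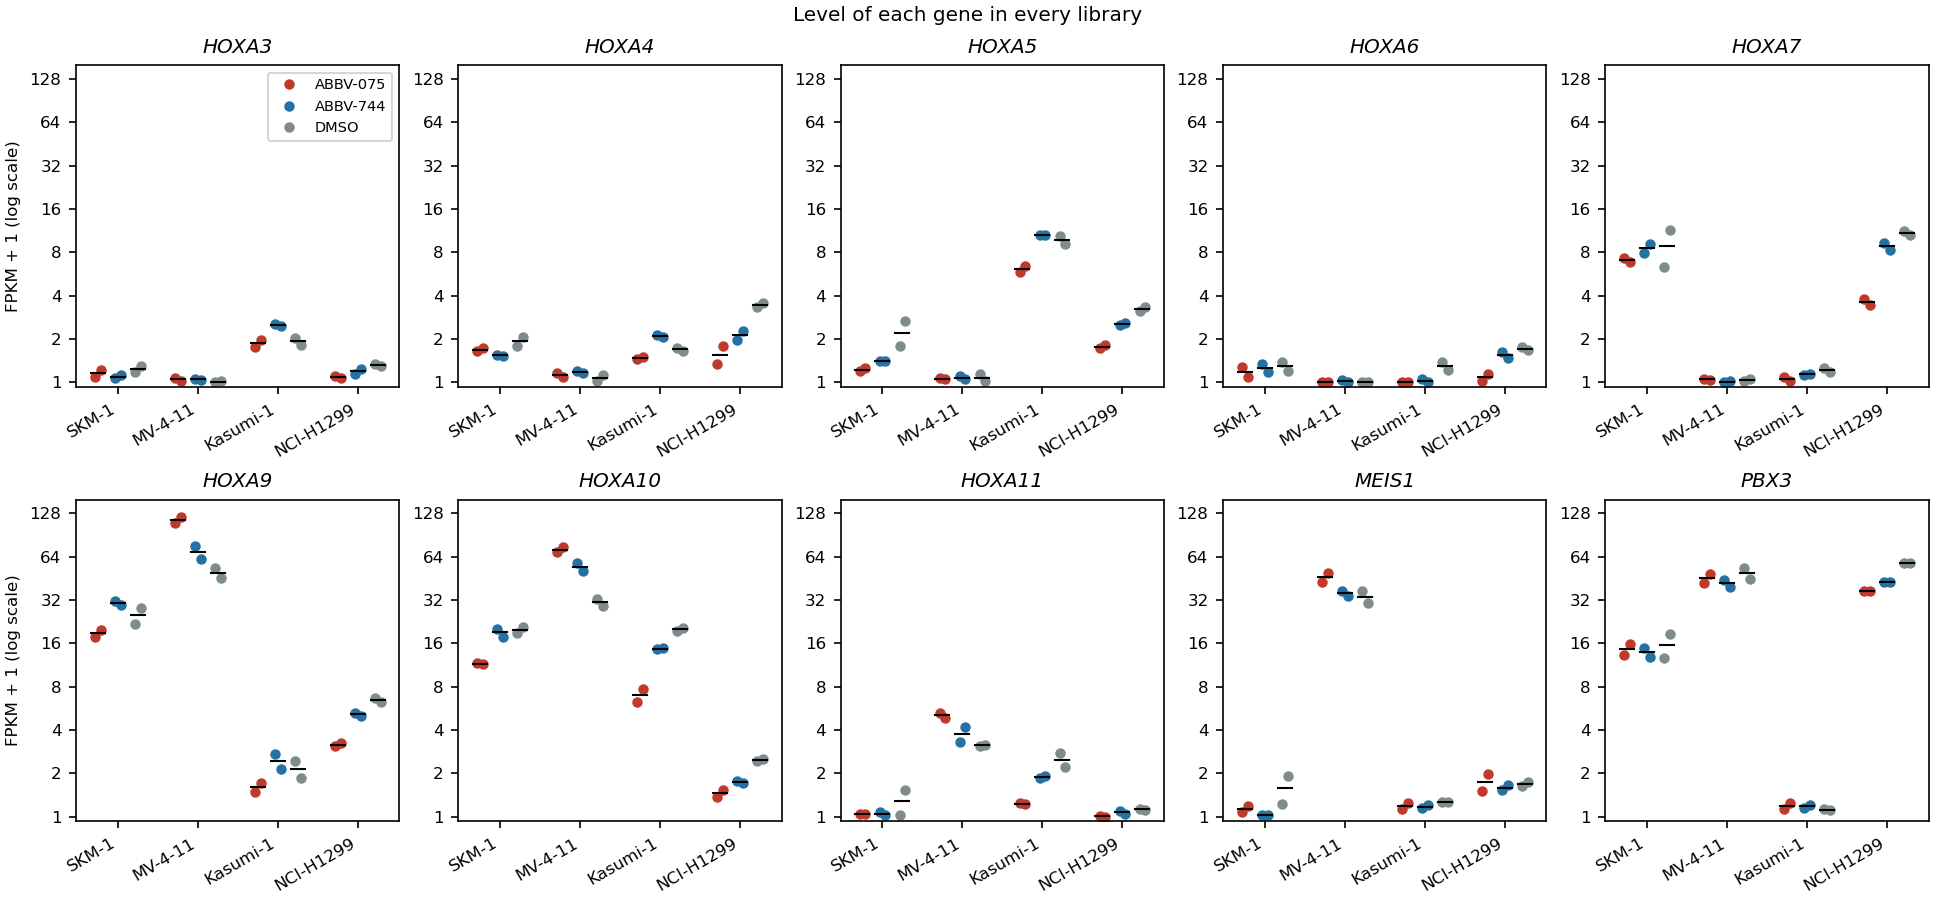
Level of each of the 10 genes in all 24 libraries, as FPKM + 1 on a log axis, by line on the x axis and by treatment in colour; points are libraries and bars are means of 2 libraries. HOXA9 and HOXA10 are highest in MV-4-11 with ABBV-075, MEIS1 stands above 1 FPKM in MV-4-11 alone, and PBX3 is near 0 in Kasumi-1.

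In DMSO, HOXA9 averaged 48.4 ± 5.17 FPKM in MV-4-11, 24.1 ± 4.46 in SKM-1, 5.46 ± 0.243 in NCI-H1299 and 1.16 ± 0.418 in Kasumi-1 (SD, n = 2 each), and each line differed from the next in this order. HOXA10 averaged 29.9 ± 2.70 FPKM in MV-4-11, 19.1 ± 0.688 in Kasumi-1, 18.8 ± 1.21 in SKM-1 and 1.46 ± 0.0593 in NCI-H1299. SKM-1 and Kasumi-1 did not differ in HOXA10 beyond their spread (SKM-1 minus Kasumi-1 log2 difference -0.02, adjusted p = 0.874). MEIS1, the TALE partner that MLL fusions keep on, was at 32.8 ± 4.56 FPKM in MV-4-11 and at 0.686 ± 0.0917 in NCI-H1299, 0.573 ± 0.486 in SKM-1 and 0.260 ± 0.0029 in Kasumi-1. It was thus above 1 FPKM in MV-4-11 libraries only. PBX3, which binds DNA with HOXA9 and MEIS1, averaged 56.6 ± 0.0893 FPKM in NCI-H1299, 48.5 ± 6.19 in MV-4-11, 14.7 ± 4.34 in SKM-1 and 0.116 ± 0.0157 in Kasumi-1. MV-4-11 and NCI-H1299 did not differ in PBX3 beyond their spread (MV-4-11 minus NCI-H1299 -0.22, adjusted p = 0.212).

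Over the 6 pairs of lines in DMSO, 39 gene-by-pair differences were called, beside 62.0% of all tested genes called for SKM-1 minus MV-4-11, 61.3% for SKM-1 minus Kasumi-1, 69.0% for SKM-1 minus NCI-H1299, 61.5% for MV-4-11 minus Kasumi-1, 70.4% for MV-4-11 minus NCI-H1299 and 69.4% for Kasumi-1 minus NCI-H1299. Passing the filter in either line sufficed here. This gave 6 tested genes for SKM-1 minus MV-4-11 and SKM-1 minus NCI-H1299, and 8 for each other pair. MEIS1 entered only through MV-4-11, HOXA3 only through Kasumi-1, and PBX3 entered the Kasumi-1 pairs through the other line. For such genes the filter favoured a difference, so their calls only describe which line had them on. With HOXA10 and PBX3 above, 3 further pairs were not called: HOXA7 in SKM-1 minus NCI-H1299 (-0.35, adjusted p = 0.0954), HOXA4 in SKM-1 minus Kasumi-1 (0.18, adjusted p = 0.164) and HOXA11 in MV-4-11 minus Kasumi-1 (0.34, adjusted p = 0.0620). Of these, the first and the last changed their call with the SKM-1 DMSO libraries. HOXA7 in SKM-1 minus NCI-H1299 was 0.08 and not called without replicate 1, and -0.79 and called without replicate 2 (adjusted p = 9.70e-06). HOXA11 in MV-4-11 minus Kasumi-1 kept its value and was called without either SKM-1 DMSO library (adjusted p = 0.0113 and 0.0111). HOXA4 in SKM-1 minus Kasumi-1 was 0.28 without replicate 1 and 0.08 without replicate 2, not called in either case. HOXA7 was high in 2 lines and low in the other 2, with 9.91 FPKM in NCI-H1299 and 7.92 in SKM-1 against 0.210 in Kasumi-1 and 0.0343 in MV-4-11.

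**Figure D2:**
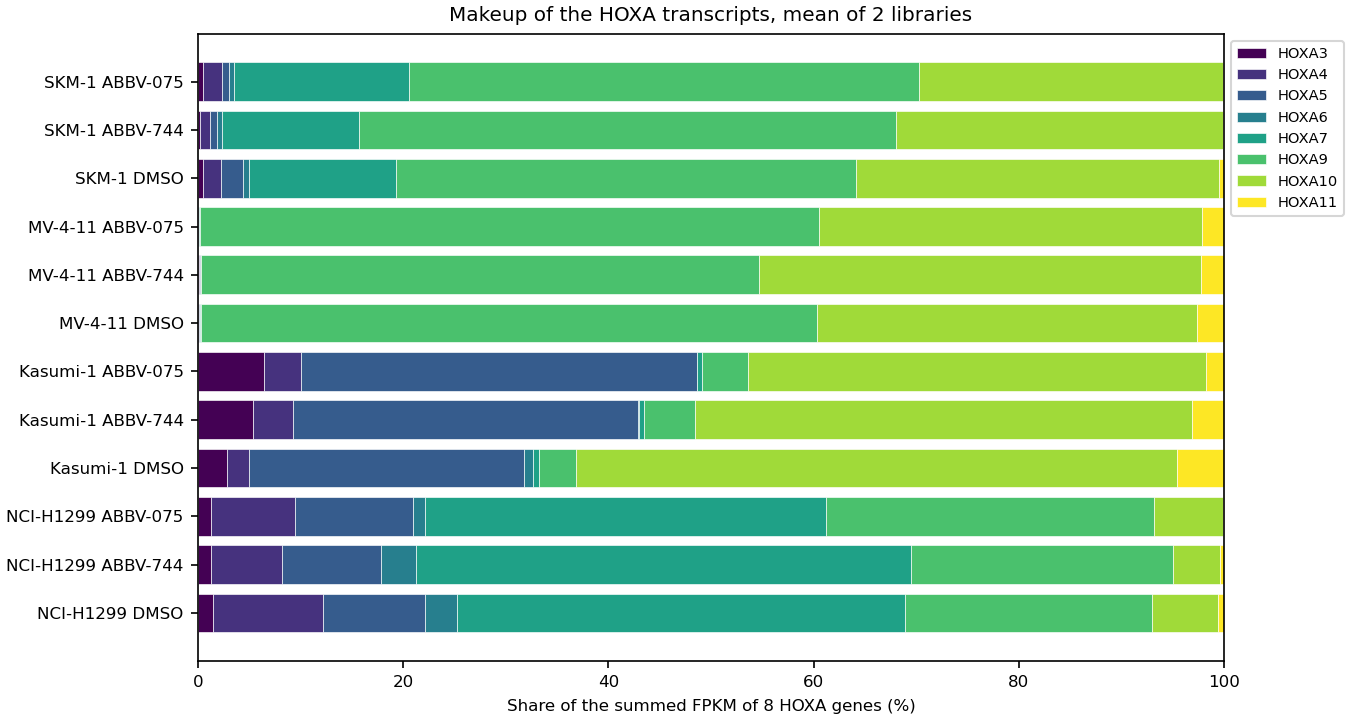
Share of each HOXA gene in the summed FPKM of the 8 HOXA genes, in percent, mean of 2 libraries per group; one bar per line and treatment, coloured by gene. HOXA9 and HOXA10 fill almost the whole bar in MV-4-11, HOXA5 and HOXA10 most of it in Kasumi-1, and HOXA7 and HOXA9 most of it in NCI-H1299.

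In MV-4-11 cells HOXA9, HOXA10, HOXA11 and MEIS1 rose with ABBV-075, and PBX3 did not pass the test. Of the 10 genes 5 were tested in this line, and 4 were called, all upward; 42.4% of all tested genes were called in either direction and 20.3% upward. The median log2 change of the 5 genes was 0.70, against -0.01 over all genes tested. HOXA9, the homeodomain factor most tied to poor-outcome myeloid leukaemia, had 109 and 120 FPKM with ABBV-075, against 52.1 and 44.8 FPKM in DMSO. The treated libraries lay 2.36-fold higher on average, without overlap, and the log2 change was 1.23 ± 0.16 (SE; adjusted p = 1.96e-05). HOXA10, its neighbour and fellow progenitor gene, had 67.7 and 74.0 FPKM with ABBV-075, against 31.8 and 27.95 FPKM in DMSO. It too was 2.37-fold higher, with a log2 change of 1.22 ± 0.12 (adjusted p = 6.74e-07). HOXA11, best known for its part in limb and uterus development, had 4.27 and 3.86 FPKM with ABBV-075 and 2.10 and 2.15 FPKM in DMSO. Its groups did not overlap, and the log2 change was 0.70 ± 0.15 (adjusted p = 0.00145), though with a pseudocount of 0.1 it was no longer called (0.90, adjusted p = 0.159). MEIS1 had 41.7 and 48.1 FPKM with ABBV-075, against 36.1 and 29.6 FPKM in DMSO. These groups did not overlap either, but the log2 change of 0.44 ± 0.17 was only just called (adjusted p = 0.0480) and lost its call in 20 of 30 alternatives, 17 of which left out 1 library. PBX3 had 41.3 and 47.2 FPKM with ABBV-075, against 52.9 and 44.1 FPKM in DMSO, overlapping ranges (-0.13, 95% interval -0.46 to 0.21).

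With ABBV-744 in MV-4-11, HOXA10 rose, and the other tested genes did not pass. HOXA10 had 56.8 and 50.1 FPKM with ABBV-744, against 31.8 and 27.95 FPKM in DMSO, 1.79-fold higher (log2 change 0.82 ± 0.12, adjusted p = 0.000254). This was 1 of 5 tested genes, beside 11.4% of all genes called in either direction and 4.61% upward. HOXA9 had 74.5 and 60.9 FPKM with ABBV-744, above both DMSO values, but it missed the threshold (0.47 ± 0.16, adjusted p = 0.0795); without either SKM-1 DMSO library, 2 genes were called in place of 1. HOXA11 had 2.32 and 3.22 FPKM (0.26 ± 0.15, adjusted p = 0.315), and MEIS1 had 36.2 and 32.95 FPKM, overlapping DMSO (0.08 ± 0.17, adjusted p = 0.840). PBX3 had 43.0 and 38.7 FPKM, just below the DMSO libraries (-0.24 ± 0.16, adjusted p = 0.393).

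The other HOXA genes of MV-4-11 were at the floor in all treatments. HOXA3, HOXA4, HOXA5, HOXA6 and HOXA7 stayed at or under 0.198 FPKM in each of its 6 libraries, and HOXA6 was at 0 in 5 of them. HOXA9 held 60.4% of the summed HOXA FPKM with ABBV-075, 54.4% with ABBV-744 and 60.05% in DMSO, so the makeup differed little while the sum was 189.7, 124.3 and 80.6 FPKM.

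In NCI-H1299 cells all 6 tested genes fell with ABBV-075, beside 47.1% of all tested genes called in either direction and 26.5% downward. Their median log2 change was -0.95, against -0.06 over all genes tested; no ABBV-075 library reached 1 FPKM for HOXA4, HOXA5 or HOXA10, which were tested through the other groups. HOXA7, a homeodomain gene of the middle of the cluster, had 2.77 and 2.47 FPKM with ABBV-075, against 10.3 and 9.54 FPKM in DMSO. This 3.78-fold lower level gave a log2 change of -1.59 ± 0.18 (adjusted p = 3.62e-06). HOXA4, an anterior gene of the cluster, had 0.343 and 0.777 FPKM with ABBV-075, against 2.34 and 2.55 FPKM in DMSO, 4.36-fold lower (-1.16 ± 0.11, adjusted p = 5.30e-07). HOXA9 had 2.07 and 2.24 FPKM with ABBV-075 and 5.64 and 5.29 FPKM in DMSO (-1.03 ± 0.16, adjusted p = 9.55e-05). In these genes the treated libraries lay below both DMSO libraries with a wide gap. HOXA5, known for its role in lung development, had 0.734 and 0.811 FPKM with ABBV-075 and 2.14 and 2.35 FPKM in DMSO (-0.87 ± 0.13, adjusted p = 7.76e-05). HOXA10 had 0.372 and 0.541 FPKM with ABBV-075 and 1.42 and 1.51 FPKM in DMSO (-0.76 ± 0.12, adjusted p = 8.46e-05); it entered the test through its DMSO libraries only. PBX3 had 35.7 and 35.8 FPKM with ABBV-075 and 56.5 and 56.6 FPKM in DMSO, 1.58-fold lower (-0.65 ± 0.16, adjusted p = 0.00305). All 6 stayed called under each alternative that kept all libraries, rescaling and centring included. With 1 library left out all 6 kept their sign, HOXA10 at -0.84 to -0.68. Those fits kept the filter of all libraries. HOXA10 thus stayed in the test without 1 of its DMSO libraries, where the filter applied anew would have dropped it. The 4 epithelial markers summed to 1322 and 1358 FPKM with ABBV-075, 523.8 and 529.7 with ABBV-744, and 518.4 and 530.8 FPKM in DMSO in this line; their part in the result was not tested.

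With ABBV-744 in NCI-H1299, HOXA4 and HOXA10 fell, 2 of 6 tested genes beside 5.35% of all genes called in either direction and 3.95% downward. HOXA4 had 0.975 and 1.27 FPKM with ABBV-744, against 2.34 and 2.55 FPKM in DMSO (-0.70 ± 0.11, adjusted p = 0.000889), and HOXA10 had 0.774 and 0.698 FPKM, against 1.42 and 1.51 FPKM in DMSO (-0.50 ± 0.12, adjusted p = 0.0187). HOXA10 entered this test through its DMSO libraries only. The other 4 tested genes did not pass the test. PBX3 had 41.8 and 41.5 FPKM with ABBV-744, against 56.5 and 56.6 FPKM in DMSO (-0.43 ± 0.16, adjusted p = 0.149). HOXA7 had 8.33 and 7.27 FPKM (-0.31 ± 0.18, adjusted p = 0.481), HOXA9 4.28 and 3.98 FPKM (-0.33 ± 0.16, adjusted p = 0.354) and HOXA5 1.51 and 1.59 FPKM (-0.35 ± 0.13, adjusted p = 0.194). With a pseudocount of 0.1 the HOXA4 call was lost (adjusted p = 0.108), and with centring on the median the HOXA10 call was lost (adjusted p = 0.0835). The count of 2 became 1 when any 1 of the ABBV-744 or DMSO libraries of NCI-H1299 was left out, and 5 when either SKM-1 DMSO library was left out.

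HOXA6, HOXA3, HOXA11 and MEIS1 were not tested in NCI-H1299. HOXA6, the middle gene between HOXA5 and HOXA7, reached its highest value of the series here, at 0.029 and 0.144 FPKM with ABBV-075, 0.613 and 0.486 with ABBV-744, and 0.759 and 0.671 FPKM in DMSO. It reached 1 FPKM in none of the 24 libraries and so was tested nowhere. MEIS1 in NCI-H1299 was between 0.513 and 0.988 FPKM in all 6 libraries, with the ABBV-075 range spanning that of DMSO.

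**Figure D3:**
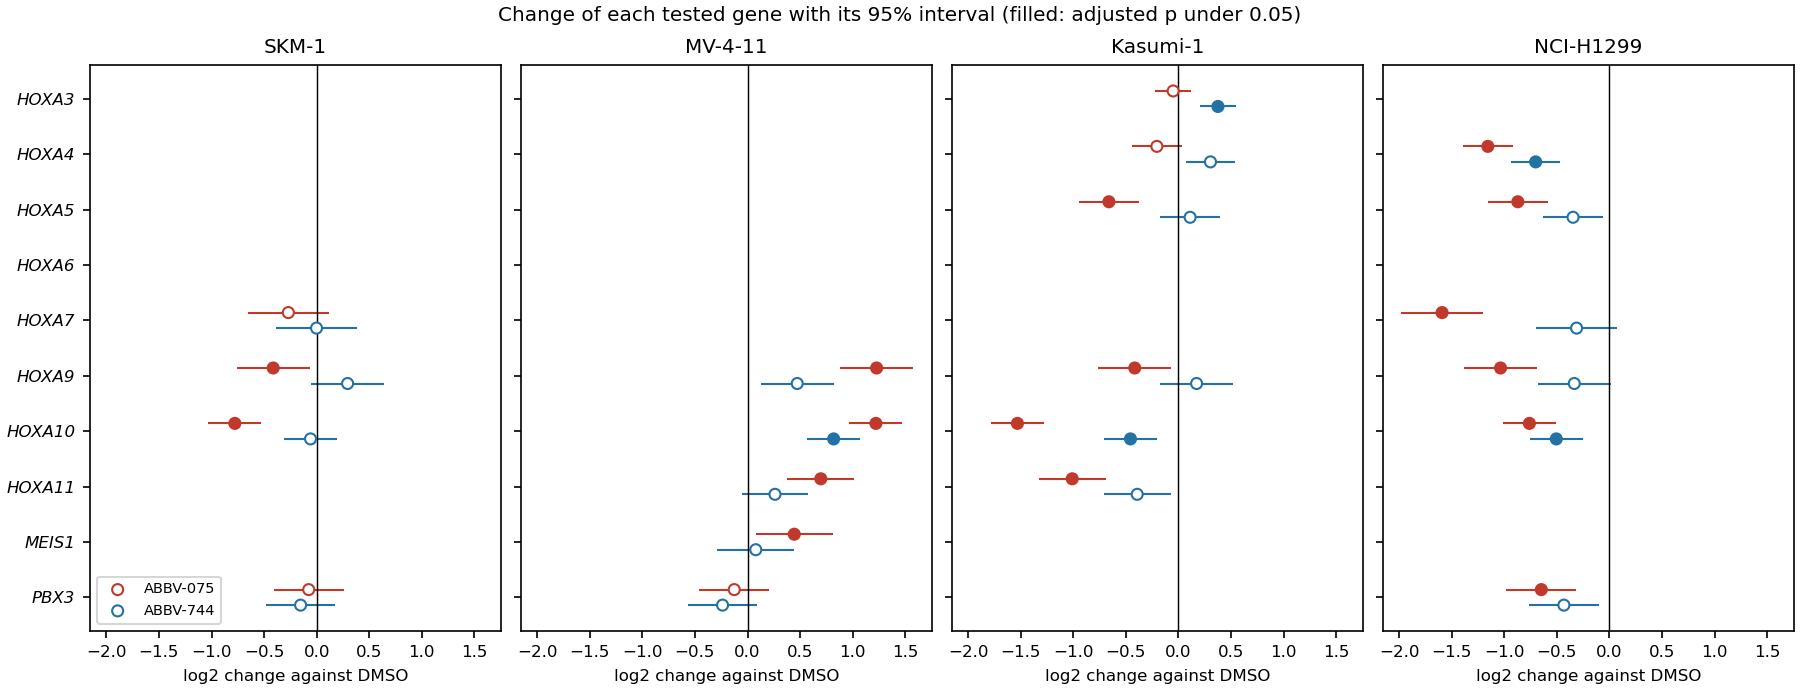
Log2 change of each tested gene against DMSO in 4 panels, one per line, with ABBV-075 in red and ABBV-744 in blue; bars are 95% intervals of the limma fit and filled points have an adjusted p under 0.05. Filled points lie right of 0 in MV-4-11, at 1.23 for HOXA9 with ABBV-075, and left of 0 in NCI-H1299, down to -1.59 for HOXA7.

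In Kasumi-1 cells HOXA10, HOXA11, HOXA5 and HOXA9 fell with ABBV-075, 4 of 6 tested genes beside 57.3% of all tested genes called in either direction and 32.6% downward. The median log2 change of the 6 genes was -0.54, against -0.09 over all genes tested. HOXA10 had 5.25 and 6.76 FPKM with ABBV-075, against 18.6 and 19.6 FPKM in DMSO. This is 3.19-fold lower, with a log2 change of -1.53 ± 0.12 (adjusted p = 3.62e-08). HOXA11 had 0.240 and 0.215 FPKM with ABBV-075 and 1.78 and 1.20 FPKM in DMSO, 6.54-fold lower in FPKM, and it entered the test through its DMSO libraries only (-1.01 ± 0.15, adjusted p = 3.31e-05). HOXA5 had 4.84 and 5.47 FPKM with ABBV-075 and 9.36 and 8.13 FPKM in DMSO (-0.66 ± 0.13, adjusted p = 0.000608). HOXA5 was no longer called with a pseudocount of 0.1 (-0.75, adjusted p = 0.0525). HOXA9 had 0.490 and 0.724 FPKM with ABBV-075 and 1.45 and 0.863 FPKM in DMSO (-0.42 ± 0.16, adjusted p = 0.0406). Its call was lost in 12 of 30 alternatives, among them without Kasumi-1 DMSO replicate 1 (-0.22, adjusted p = 0.366). HOXA3, needed for thymus and throat development, had 0.760 and 0.971 FPKM with ABBV-075 and 1.04 and 0.823 FPKM in DMSO, overlapping ranges (-0.05, 95% interval -0.22 to 0.12). HOXA4 had 0.445 and 0.503 FPKM with ABBV-075 and 0.742 and 0.658 FPKM in DMSO (-0.21 ± 0.11, adjusted p = 0.125).

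With ABBV-744 in Kasumi-1, HOXA3 rose and HOXA10 fell, 2 of 6 tested genes beside 23.6% of all genes called in either direction, 8.69% upward and 15.0% downward. HOXA3 had 1.56 and 1.45 FPKM with ABBV-744, against 1.04 and 0.823 FPKM in DMSO (0.38 ± 0.08, adjusted p = 0.00279). It passed the filter only with its ABBV-744 libraries counted, since 1 FPKM was otherwise reached only in DMSO replicate 1. HOXA10 had 13.5 and 13.8 FPKM with ABBV-744, against 18.6 and 19.6 FPKM in DMSO (-0.46 ± 0.12, adjusted p = 0.0111). Each of these groups lay apart from DMSO. HOXA4, which entered the test through its ABBV-744 libraries only, had 1.12 and 1.08 FPKM with ABBV-744 (0.30 ± 0.11, adjusted p = 0.0580), and HOXA11 had 0.859 and 0.910 FPKM (-0.39 ± 0.15, adjusted p = 0.0700). HOXA5 had 9.50 FPKM in both ABBV-744 libraries (0.11 ± 0.13), just above DMSO, and HOXA9 had 1.72 and 1.13 FPKM, overlapping DMSO (0.17 ± 0.16). With a pseudocount of 0.1 the HOXA3 call was lost (adjusted p = 0.107), and with centring on the median the HOXA10 call was lost (adjusted p = 0.0513). Both calls were lost when the line was fitted alone (adjusted p = 0.170 for HOXA3 and 0.150 for HOXA10). HOXA10 was at -0.44 without Kasumi-1 ABBV-744 replicate 1 and at -0.42 without Kasumi-1 DMSO replicate 2. The count of 2 became 4 without either SKM-1 DMSO library and 1 without Kasumi-1 ABBV-744 replicate 1.

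Within the HOXA genes of Kasumi-1 the balance between HOXA10 and HOXA5 differed by treatment. HOXA10 held 44.7% of the summed HOXA FPKM with ABBV-075, 48.4% with ABBV-744 and 58.7% in DMSO, while HOXA5 held 38.6%, 33.6% and 26.7% in the same order. The sum was 13.4 FPKM with ABBV-075, 28.2 with ABBV-744 and 32.7 in DMSO. PBX3, MEIS1, HOXA6 and HOXA7 were not tested in Kasumi-1, with no library above 0.381 FPKM. The 4 epithelial markers, mostly EPCAM, summed to 16.6 and 22.9 FPKM with ABBV-075, 33.9 and 33.7 with ABBV-744, and 71.1 and 62.4 FPKM in DMSO in this line. EPCAM, an adhesion protein of epithelial cells, fell with ABBV-075 (-1.75, adjusted p = 4.07e-05) and with ABBV-744 (-0.96, adjusted p = 0.0148). In SKM-1 the same markers summed to 8.61 and 8.67 FPKM with ABBV-075, 12.2 and 11.0 with ABBV-744, and 19.6 and 52.6 FPKM in DMSO, and EPCAM fell there with ABBV-075 (-1.78). Their part in the HOXA values was not tested.

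In SKM-1 cells HOXA10 and HOXA9 fell with ABBV-075, 2 of 4 tested genes beside 61.3% of all tested genes called in either direction and 29.2% downward. Their median log2 change was -0.34, against 0.05 over all genes tested. HOXA10 had 10.6 and 10.5 FPKM with ABBV-075, against 18.0 and 19.7 FPKM in DMSO, 1.78-fold lower (-0.78 ± 0.12, adjusted p = 3.71e-05). Its change was -0.84 without SKM-1 DMSO replicate 1 and -0.72 without replicate 2, called both times. HOXA9 had 16.7 and 18.8 FPKM with ABBV-075, against 20.98 and 27.3 FPKM in DMSO (-0.41 ± 0.16, adjusted p = 0.0391). The groups did not overlap, but the change was -0.23 and not called without SKM-1 DMSO replicate 2 (adjusted p = 0.291), and the call was also lost without either ABBV-075 library (adjusted p = 0.188 and 0.0535), in all under 7 of 30 alternatives. HOXA7 had 6.32 and 5.84 FPKM with ABBV-075 and 5.30 and 10.5 FPKM in DMSO, and PBX3 had 12.3 and 14.9 FPKM with ABBV-075 and 11.6 and 17.7 FPKM in DMSO. For both genes the DMSO libraries lay on either side of the treated ones, and neither was called (HOXA7 -0.27, PBX3 -0.08). The call turned on the DMSO library used: without replicate 1 HOXA7 was at -0.71 and PBX3 at -0.36, both called, and without replicate 2 they were at 0.17 and 0.21, not called.

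No gene of the 10 was called with ABBV-744 in SKM-1 by limma, 0 of 4 tested beside 27.4% of all tested genes called. At an unadjusted p under 0.05 there were 0 as well. HOXA9 had 30.6 and 28.6 FPKM with ABBV-744, above both DMSO values of 20.98 and 27.3 FPKM (0.29, 95% interval -0.05 to 0.64); it was 0.11 without DMSO replicate 1 and 0.48 without replicate 2, not called in either case. HOXA10 had 19.2 and 16.9 FPKM with ABBV-744, overlapping 18.0 and 19.7 FPKM in DMSO (-0.06, 95% interval -0.31 to 0.19), with -0.12 and 0.00 without those libraries in turn, not called in either case. HOXA7 with ABBV-744 had 6.96 and 8.12 FPKM, between the DMSO libraries, and its change took opposite signs without either of them (-0.44 without replicate 1 and 0.44 without replicate 2, both called). PBX3 had 13.7 and 11.9 FPKM (-0.15), and it was called only without SKM-1 DMSO replicate 1 (-0.44).

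Of the 6 genes not tested in SKM-1, all but HOXA6 were higher in DMSO replicate 2 than in replicate 1, replicate 2 being the library with the larger mitochondrial share and epithelial marker sum. HOXA5 had 0.196 and 0.250 FPKM with ABBV-075, 0.407 and 0.411 with ABBV-744, and 0.780 and 1.65 FPKM in DMSO. MEIS1 had 0.074 and 0.185 FPKM with ABBV-075, 0.0268 and 0.0241 with ABBV-744, and 0.229 and 0.916 FPKM in DMSO. In both, all treated libraries lay below both DMSO libraries. HOXA11 was at most 0.0771 FPKM in the treated libraries, with 0.0179 and 0.529 FPKM in DMSO. The part of the mitochondrial share or of the marker genes in these values was not tested.

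Set against each other at their own doses, ABBV-744 and ABBV-075 left different levels in every line, and 4 such comparisons were made, 1 per line. In Kasumi-1 all 6 tested genes were higher with ABBV-744 at 200 nM than with ABBV-075 at 100 nM. Of all genes 37.7% were called and 21.2% were higher. HOXA10 was at 1.07 ± 0.12 (adjusted p = 6.01e-06) and HOXA5 at 0.77 ± 0.13 (adjusted p = 0.000397). HOXA4 had entered the test in Kasumi-1 through its ABBV-744 libraries only, and HOXA3 and HOXA9 passed the filter only with theirs counted. The filter thus favoured higher values with ABBV-744 in these genes. In NCI-H1299, 4 of 6 were higher with ABBV-744, beside 34.6% of all genes called and 18.6% higher, led by HOXA7 at 1.28 ± 0.18 (adjusted p = 6.54e-05) and HOXA9 at 0.70 ± 0.16 (adjusted p = 0.00380). HOXA10 (0.26, 95% interval 0.00261 to 0.51) and PBX3 (0.21, 95% interval -0.12 to 0.55) were not called there. In SKM-1, 2 of 4 were higher with ABBV-744, beside 43.6% of all genes called and 22.7% higher: HOXA10 at 0.72 ± 0.12 (adjusted p = 0.000158) and HOXA9 at 0.71 ± 0.16 (adjusted p = 0.00247). In MV-4-11 the sign was opposite. There 3 of 5 were lower with ABBV-744 than with ABBV-075, beside 21.9% of all genes called and 9.44% lower: HOXA9 at -0.75 ± 0.16 (adjusted p = 0.00325), HOXA11 at -0.44 ± 0.15 (adjusted p = 0.0482) and HOXA10 at -0.40 ± 0.12 (adjusted p = 0.0233). In MV-4-11 MEIS1 was at -0.37 (95% interval -0.73 to -0.00144) and PBX3 at -0.11 (95% interval -0.44 to 0.22), neither called. Without either SKM-1 DMSO library MEIS1 in MV-4-11 was called at the same value (adjusted p = 0.0409 and 0.0407), as was HOXA7 in SKM-1 at 0.27 (adjusted p = 0.0184 and 0.0182). The HOXA11 call was lost in 23 of 30 alternatives (adjusted p up to 0.513). The MV-4-11 count was 1 without either ABBV-075 library or without ABBV-744 replicate 2, and the NCI-H1299 count was 2 without ABBV-075 replicate 1.

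The response to ABBV-075 differed between lines for HOXA9 and HOXA10 when tested directly, as the difference of the log2 changes. MV-4-11 minus NCI-H1299 gave 2.26 for HOXA9 (adjusted p = 1.08e-05) and 1.98 for HOXA10 (adjusted p = 1.83e-06), 2 of 3 tested genes beside 15.8% of all. MV-4-11 minus Kasumi-1 gave 1.64 for HOXA9, 2.75 for HOXA10 and 1.71 for HOXA11, 3 of 3 beside 27.3%. In these pairs HOXA11 in Kasumi-1 and HOXA10 in NCI-H1299 had entered the test through their DMSO libraries only. SKM-1 minus MV-4-11 gave -1.64 for HOXA9 and -1.999 for HOXA10, 2 of 3 beside 29.2%. In both genes MV-4-11 thus differed from each of the other lines. Between the other lines, SKM-1 minus Kasumi-1 was 0.00 for HOXA9 (95% interval -0.49 to 0.50) and 0.75 for HOXA10, 1 of 2 beside 30.9%; the HOXA10 call was lost when these lines were fitted alone (adjusted p = 0.0653). SKM-1 minus NCI-H1299 had HOXA7 called at 1.32, 1 of 4 beside 29.0%, and Kasumi-1 minus NCI-H1299 had HOXA4 at 0.95 and HOXA10 at -0.77 called, 2 of 4 beside 24.5%. With a pseudocount of 0.1 that HOXA10 difference was -0.16 and not called (adjusted p = 0.643). HOXA10 in NCI-H1299 had 0.3725 and 0.541 FPKM with ABBV-075 and 1.42 and 1.51 FPKM in DMSO, where log2(FPKM + 1) understates changes. In Kasumi-1 it had 5.25 and 6.76 FPKM, against 18.6 and 19.6 FPKM in DMSO. A different fold change of HOXA10 in these lines is thus not shown. The SKM-1 DMSO libraries moved the differences between lines. Without replicate 1 and without replicate 2 in turn, SKM-1 minus MV-4-11 was -1.82 and -1.46 for HOXA9 and -2.06 and -1.94 for HOXA10, and SKM-1 minus NCI-H1299 was 0.88 and 1.76 for HOXA7, all called. HOXA9 in SKM-1 minus NCI-H1299 was 0.62 (adjusted p = 0.0558), with 0.44 and not called without replicate 1, and 0.80 and called without replicate 2 (adjusted p = 0.0187). HOXA9 in Kasumi-1 minus NCI-H1299, at 0.62 (adjusted p = 0.0638), was called without either SKM-1 DMSO library (adjusted p = 0.0353). For PBX3, MV-4-11 minus NCI-H1299 was 0.52 (95% interval 0.05 to 0.99, adjusted p = 0.131) and SKM-1 minus NCI-H1299 was 0.57 (adjusted p = 0.0640), neither called. These PBX3 results also turned on those libraries: MV-4-11 minus NCI-H1299 was called without either of them (adjusted p = 0.0279) and when its lines were fitted alone (adjusted p = 0.0144). SKM-1 minus NCI-H1299 was 0.86 and called without replicate 2 (adjusted p = 0.00225), and 0.29 and not called without replicate 1 (adjusted p = 0.204). The lines differ in many ways beside their fusion genes, so which feature goes with the response cannot be told apart here.

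For ABBV-744, HOXA10 differed between MV-4-11 and each other line, at 1.32 for MV-4-11 minus NCI-H1299 (1 of 3 tested genes, beside 0.476% of all), 1.28 for MV-4-11 minus Kasumi-1 (1 of 3, beside 3.90%) and -0.88 for SKM-1 minus MV-4-11 (1 of 3, beside 5.43%). In NCI-H1299 HOXA10 had entered the test through its DMSO libraries only. Kasumi-1 minus NCI-H1299 had HOXA4 called at 1.01, 1 of 4 beside 3.45%. HOXA4 had entered the test in Kasumi-1 through its ABBV-744 libraries only, which favoured a rise there. The HOXA4 call was lost with a pseudocount of 0.1 (adjusted p = 0.0565). None was called for SKM-1 minus Kasumi-1 (0 of 2 by limma, beside 3.98%) or for SKM-1 minus NCI-H1299 (0 of 4 by limma, beside 4.28%). At an unadjusted p under 0.05 these pairs had 1 and 2 genes, with no share over all genes at that threshold to set beside them. HOXA10 in SKM-1 minus MV-4-11 was -0.94 without SKM-1 DMSO replicate 1 and -0.81 without replicate 2, called both times, and was not called when the lines were fitted alone (adjusted p = 0.0772). HOXA7 in SKM-1 minus NCI-H1299, at 0.31 and not called, was -0.13 without replicate 1 and 0.75 and called without replicate 2 (adjusted p = 0.00672). HOXA11 in MV-4-11 minus Kasumi-1, at 0.65, and HOXA5 in Kasumi-1 minus NCI-H1299, at 0.46, were called without either SKM-1 DMSO library.

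Of the rest of the HOXA cluster only a few non-coding RNAs were tested, and their changes went in different directions between lines. Of 9 further genes and non-coding RNAs of the cluster that were looked up, 8 were found in the table. Of all tested genes 42.4% were called with ABBV-075 in MV-4-11, 61.3% in SKM-1, 57.3% in Kasumi-1 and 47.1% in NCI-H1299, and these few genes give no share to set against that. In MV-4-11 with ABBV-075, 2 of 3 tested rose and 0 fell (median log2 change 0.35, against -0.01 over all tested genes): HOXA-AS4, the antisense RNA also called HOXA10-AS, at 1.05 and HOXA11-AS at 0.35. In SKM-1 with ABBV-075, HOTAIRM1 rose (0.85) and HOXA-AS4 fell (-2.01), 1 each way of 2 tested. HOTAIRM1, a non-coding RNA of the anterior end of the cluster known from myeloid maturation, had 15.5 and 17.3 FPKM with ABBV-075, 17.8 and 14.3 with ABBV-744 and 8.55 and 8.78 FPKM in DMSO there. It thus lay above DMSO with each compound in SKM-1, without overlap, whereas HOXA9 and HOXA10 were below it with ABBV-075. HOXA-AS4 in SKM-1 had 0.901 and 1.22 FPKM with ABBV-075 and 3.56 and 14.1 FPKM in DMSO, a wide DMSO spread. Its change was -2.88 without SKM-1 DMSO replicate 1 and -1.15 without replicate 2, called both times, and HOTAIRM1 stayed called without either (0.83 and 0.87). In Kasumi-1 with ABBV-075, HOXA11-AS fell (-0.30), 1 of 2, and the 1 tested in NCI-H1299 was not called by limma. Whether reads were counted by strand is not stated, so HOXA10 and HOXA-AS4, and HOXA11 and HOXA11-AS, may share reads; the HOXA10-HOXA9 readthrough row, whose exons overlap both genes, never exceeded 7.704e-18 FPKM.

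HOX genes of the other clusters were tested mostly in NCI-H1299. With ABBV-075 in that line 7 of 8 tested HOXB genes fell (median -0.93, against -0.06 over all tested genes), beside 26.5% of all tested genes called downward and 47.1% in either direction, led by HOXB7 (-1.75), HOXB2 (-1.54) and HOXB6 (-1.52), and HOXB8 was not called (-0.18). Of 7 HOXC genes 6 fell and 1 rose (median -0.997), with HOXC10 at -1.41, HOXC8 at -1.22 and HOXC6 at -1.22. Of 3 HOXD genes 2 fell, HOXD13 (-0.78) and HOXD9 (-0.51). In MV-4-11, where HOXA9 and HOXA10 rose, 3 of 4 tested HOXB genes fell with ABBV-075, with HOXB7 at -1.22 and HOXB6 at -0.58. Of all genes there, 42.4% were called in either direction and 20.3% upward. HOXC6 also fell (-0.67). In SKM-1, where HOXA9 and HOXA10 fell, HOXB3 (0.73) and HOXB4 (0.49), genes of blood progenitors, rose. These were 2 of 2 tested, beside 61.3% of all genes called. Their median was 0.61, with 0.67 without SKM-1 DMSO replicate 1 and 0.54 without replicate 2. HOXD1, the 1 HOXD gene tested in SKM-1, rose too (0.67, with 0.81 and 0.54 without those libraries in turn). With ABBV-744 it also rose (0.58), beside 27.4% of all genes called. HOXD13, a limb gene of the posterior end of its cluster, fell in Kasumi-1 with ABBV-075 (-1.90). It was the 1 HOXD gene tested there, beside 57.3% of all genes called in either direction and 32.6% downward. No HOXB or HOXC gene was tested in that line.

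**Figure D4:**
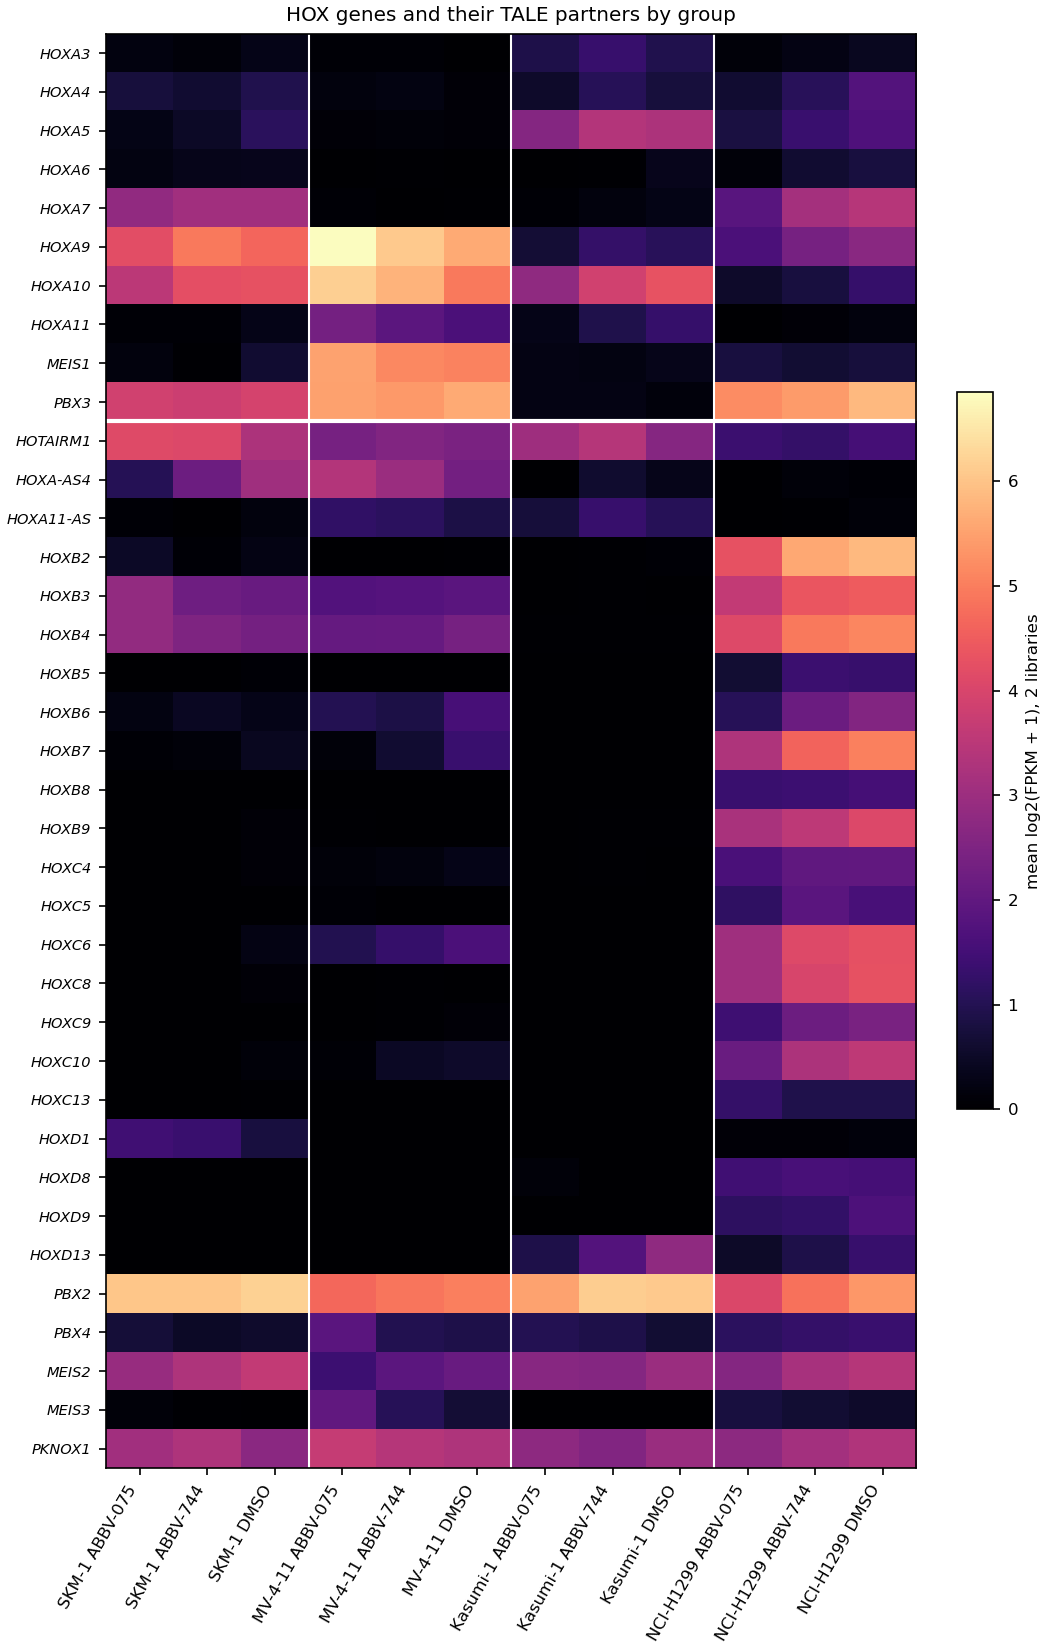
Mean log2(FPKM + 1) of 2 libraries for the 10 genes (above the white line) and 27 other HOX and TALE genes (below it), by group on the x axis. HOXB and HOXC genes are bright in NCI-H1299 and dark in Kasumi-1, and HOXA9, HOXA10, MEIS1 and PBX3 are bright in MV-4-11.

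Other TALE genes changed as follows with ABBV-075. In MV-4-11 MEIS3 (1.34) and PBX4 (0.98) rose and MEIS2 fell (-0.72), with 2 of 5 tested up and 2 down, beside 42.4% of all genes called in either direction. In NCI-H1299 PBX2 (-1.31) and MEIS2 (-0.80) fell, 2 of 4 tested beside 47.1% in either direction and 26.5% downward. In Kasumi-1 PBX2 fell (-0.56), 1 of 3 beside 57.3% in either direction and 32.6% downward. In SKM-1 MEIS2 fell (-0.68), 1 of 3 tested beside 61.3% in either direction and 29.2% downward. The median of the 3 was -0.17, with -0.36 without SKM-1 DMSO replicate 1 and -0.13 without replicate 2. With ABBV-744 none of the tested TALE genes was called in SKM-1 (3 tested), MV-4-11 (5 tested) or Kasumi-1 (3 tested). Of all genes 27.4%, 11.4% and 23.6% were called in these lines. In NCI-H1299 1 of 4 fell, beside 5.35% of all genes called in either direction and 3.95% downward. So few genes give no share to set against these. In SKM-1 the median log2 change was -0.16, with -0.35 without SKM-1 DMSO replicate 1 and 0.03 without replicate 2.

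A list of 18 genes held MLL, menin and elongation factors, some of which write or read the chromatin marks of active HOXA genes. It also held NPM1, KAT6A, KAT7 and BRPF1. In MV-4-11 with ABBV-075, 5 of the 18 rose and 2 fell, beside 42.4% of all genes called in either direction. Their median was 0.05, against -0.01 over all tested genes. MLLT3 (1.21) and AFF4 (0.98), parts of the super elongation complex, rose, and MLLT10 fell (-0.78). MLLT3 (1.41) and AFF4 (1.20) rose in SKM-1, with 7 up and 4 down of 18 beside 61.3% of all genes. There 6 rose and 4 fell without SKM-1 DMSO replicate 1, and 6 each way without replicate 2. AFF1 (0.85), AFF4 (0.82) and MLLT3 (0.75) rose in NCI-H1299, with 5 up and 3 down beside 47.1%. In Kasumi-1, AFF1 rose (1.31) and WDR5 (-1.12) and MLLT1 (-1.07) fell, 5 each way beside 57.3%. The called shares of these 18 genes lay near those over all genes, so the counts are no result about them. Of 13 Polycomb genes, which keep silent HOX genes off, 1 rose and 3 fell in MV-4-11: EZH1 rose (0.75), and PCGF1 (-0.78) and EZH2 (-0.55) fell. Of all genes 42.4% were called in MV-4-11, 61.3% in SKM-1, 47.1% in NCI-H1299 and 57.3% in Kasumi-1. The Polycomb counts are no result about these genes. EZH1 also rose in SKM-1 (1.28; 2 up and 3 down of 12, and 4 each way without SKM-1 DMSO replicate 1) and in NCI-H1299 (0.78; 2 up and 4 down of 13), and in Kasumi-1 it rose by 0.49 and CBX2 fell (-0.89; 2 up and 3 down of 13).

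Genes known as targets of HOXA9 and MEIS1 in leukaemia did not follow one direction. In MV-4-11 with ABBV-075, where HOXA9 rose, 2 of 11 tested rose and 2 fell (median -0.20, against -0.01 over all tested genes), beside 42.4% of all genes called. CDK6 (-2.01), a cell cycle kinase, and BCL2 (-1.98), a survival factor, fell, and ID2, an inhibitor of helix-loop-helix factors, rose (1.69). In SKM-1, 3 rose and 7 fell of 11 (median -0.98, against 0.05), beside 61.3% of all genes called in either direction and 29.2% downward. Among them the blood transcription factors MYB and LMO2 were at -5.63 and -3.63, and BCL2 at -3.38. Without SKM-1 DMSO replicate 1, 3 rose and 8 fell, and without replicate 2, 4 rose and 6 fell; MYB, LMO2 and BCL2 fell both times. In Kasumi-1, 4 rose and 5 fell of 12 (median -0.13, against -0.09), with LMO2 at -2.66 and SOX4 at 1.55, beside 57.3% of all genes called, and in NCI-H1299, 2 rose and 2 fell of 7 (median -0.37, against -0.06), with ID2 at 2.95, beside 47.1%. BCL2 fell in all 4 lines, by 1.62 in Kasumi-1 and by 0.69 in NCI-H1299 on the log2 scale. The leukocyte markers did not all move one way with ABBV-075. SPI1, a master factor of myeloid cells, fell in SKM-1 (-3.26) and Kasumi-1 (-3.71), and CD33, a myeloid surface receptor, fell in both (-0.95 and -1.91). PTPRC, the pan-leukocyte phosphatase CD45, fell in SKM-1 (-1.28) but rose in Kasumi-1 (0.42, adjusted p = 0.0254). In MV-4-11 SPI1 (-0.46), PTPRC (-0.38) and CD33 (-0.33) were not called. The 4 leukocyte markers summed to 92.0 and 84.1 FPKM with ABBV-075 and 312.4 and 273.7 FPKM in DMSO in SKM-1. In Kasumi-1 they summed to 37.0 and 38.5 FPKM with ABBV-075 and 96.0 and 95.6 FPKM in DMSO, and in MV-4-11 to 209.6 and 212.1 FPKM with ABBV-075 and 260.8 and 287.0 FPKM in DMSO; all 4 were above 0 in these libraries. ITGAM, a marker of myeloid maturation, rose in MV-4-11 (1.15), fell in NCI-H1299 (-0.92) and was not called in SKM-1 (-0.14), where it was at 0.15 without DMSO replicate 1 and at -0.42 and called without replicate 2. The part of these markers in the HOXA values was not tested.

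Across the 12 group means the genes most like HOXA9 in pattern were R3HDM4 (Pearson r = 0.980), CEBPB (0.977) and ITGA7 (0.972), among 11865 genes. Most like HOXA10 were PIK3AP1 (0.978), CISH (0.977) and FGD3 (0.975). For MEIS1 they were DNAJC15 (0.998), HMX3 (0.996) and HMX2 (0.995), and for PBX3 ZNF426 (0.991), C7orf50 (0.988) and PPP1R26 (0.984). The 12 points share 4 lines, so these values mostly describe which lines are high, and they are given as a description.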

How the data were processed

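Poly-A selected RNA of 24 libraries (4 lines, 3 treatments, 2 libraries each) was measured. The authors deposited 1 table of FPKM values; DESeq2 is named by the submitters' processing notes, with no role. Aligner, quantifier, annotation and genome build: not given in the sources used here. Among the deposited values, 0.215% were above 0 and below 0.0001 FPKM, so it holds no whole counts and no depth, and no count test was run. Groups were taken from the labels' treatment and cell line fields. FPKM values were transformed to log2(FPKM + 1). The 15370 rows that reached 1 FPKM in 2 or more libraries of any 1 line were fitted with limma 3.58.1 in R 4.3.3 (eBayes with trend and robust; 12 group means, 12 residual degrees of freedom), and 30 comparisons were drawn from this fit. Benjamini-Hochberg adjustment covered the genes that passed the filter in the lines compared: 1 FPKM reached in 2 or more libraries of the line, of both lines for response differences, and of either line for DMSO. Alternatives were a pseudocount of 0.1, no filter, rescaling to equal FPKM sums without the 37 mitochondrial rows, centring on the median, fitting the lines compared alone, eBayes without trend and robust, and leaving out each library. Except for the fit with no filter, each alternative kept the filter of all 24 libraries. The 10 genes and the 9 lists, of whose 94 genes 93 were matched, were chosen with earlier results of these data known; some genes of these families are not reported here. From each list up to 3 called genes with the largest change with ABBV-075 per line and up to 2 not called were named, and by correlation 3 genes for each of HOXA9, HOXA10, MEIS1 and PBX3 (minimum group mean 5 FPKM in 1 group). Promoter sequences are from RefSeq. Figures were drawn with matplotlib 3.10.9.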

Additional observations from a re-analysis of the deposited data

Results flagged for a closer look

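The difference between lines in the response to a compound, tested as a contrast of contrasts in limma with Benjamini-Hochberg adjustment, passed for 15 gene and line pairs. For each line pair 2 to 4 of the 10 genes were tested. Of all tested genes, 15.8% to 30.9% were called with ABBV-075 and 0.476% to 5.43% with ABBV-744, by line pair. With ABBV-075, SKM-1 minus MV-4-11 was -1.64 for HOXA9 (adjusted p = 9.43e-05) and -1.999 for HOXA10 (adjusted p = 5.95e-07). MV-4-11 minus Kasumi-1 was 1.64 for HOXA9 (adjusted p = 0.000133), 2.75 for HOXA10 (adjusted p = 1.42e-07) and 1.71 for HOXA11 (adjusted p = 4.32e-05), and MV-4-11 minus NCI-H1299 was 2.26 for HOXA9 and 1.98 for HOXA10. Between the other lines, SKM-1 minus Kasumi-1 was 0.75 for HOXA10 (adjusted p = 0.00434), SKM-1 minus NCI-H1299 was 1.32 for HOXA7 (adjusted p = 0.00133), and Kasumi-1 minus NCI-H1299 was 0.95 for HOXA4 (adjusted p = 0.000437) and -0.77 for HOXA10 (adjusted p = 0.00364). With ABBV-744, HOXA10 differed by -0.88 in SKM-1 minus MV-4-11 (adjusted p = 0.00602), by 1.28 in MV-4-11 minus Kasumi-1 (adjusted p = 0.00104) and by 1.32 in MV-4-11 minus NCI-H1299 (adjusted p = 0.00242), and HOXA4 differed by 1.01 in Kasumi-1 minus NCI-H1299 (adjusted p = 0.00319). HOXA4 was under 3 FPKM in each library, and in Kasumi-1 it had entered the test through its ABBV-744 libraries only. With a pseudocount of 0.1 its ABBV-744 difference was not called (adjusted p = 0.0565). The Kasumi-1 minus NCI-H1299 difference of HOXA10 with ABBV-075 was -0.16 and not called (adjusted p = 0.643) with that pseudocount. Its call thus rested on the pseudocount of 1, and a different fold change in these lines is not shown. HOXA11 in Kasumi-1 and HOXA10 in NCI-H1299 had entered through their DMSO libraries only. The cause of these differences was not tested.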

How the results depend on the processing

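Of 4350 comparisons of a single-gene result with an alternative, 4194 kept their side of the threshold, 93 lost the call, 61 gained one and 2 reversed: HOXA7 with ABBV-744 in SKM-1 without SKM-1 DMSO replicate 2 (0.44, and -0.44 without replicate 1), and HOXA10, ABBV-075 response, SKM-1 minus NCI-H1299, with a pseudocount of 0.1 (0.68, against -0.02 and not called). Of the 4194, 4147 also kept their sign, and 47, from 22 results, turned sign without being called in either fit. With a pseudocount of 0.1 the number of called genes was 1 in place of 2 for ABBV-075 in SKM-1, 2 in place of 4 for ABBV-075 in MV-4-11, 1 in place of 2 for ABBV-744 in Kasumi-1 and in NCI-H1299, and 1 in place of 3 for ABBV-744 against ABBV-075 in MV-4-11. Centring gave 1 in place of 2 for ABBV-075 in SKM-1 and for ABBV-744 in Kasumi-1 and NCI-H1299. Rescaling gave 2 in place of 1 for ABBV-744 in MV-4-11. Fitting the line alone gave 1 in place of 2 for ABBV-075 in SKM-1, 2 in place of 1 for ABBV-744 in MV-4-11, 0 in place of 2 in Kasumi-1, 6 in place of 2 in NCI-H1299, and 1 in place of 2 for ABBV-744 against ABBV-075 in SKM-1. Without a filter, ABBV-744 in SKM-1 had 2 in place of 0, and the response differences were 37 in place of 15. Leaving out 1 library gave 1 to 4 for ABBV-075 in SKM-1, 0 to 2 for ABBV-744 in SKM-1, 1 to 2 in MV-4-11, 1 to 4 in Kasumi-1 and 1 to 5 in NCI-H1299, and for ABBV-744 against ABBV-075 1 to 4 in MV-4-11 and 2 to 4 in NCI-H1299. The cause was not tested. Over the comparisons, rescaling moved the median of all genes by -0.24 to 0.27 and centring by -0.21 to 0.19. HOXA9 and HOXA10 with ABBV-075 in MV-4-11 stayed called under all 30 alternatives, at 1.12 to 1.33 and 1.13 to 1.31. No paired analysis was possible because the labels give no replicate numbers. FPKM without counts gives no depth, so genes near 0, such as HOXA6, cannot be judged.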
